A study of Mus musculus with 12 samples.

Results

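The comparison described here is the loss of Phlpp2 in mouse epiphyseal chondrocytes, taken over 6 RNA-seq libraries that lack Phlpp2 and 6 that carry it. All 12 of the 12 libraries of the study entered. The groups were chosen by genotype alone. Without Phlpp2 were 3 Phlpp2 KO and 3 Phlpp1/2 KO libraries, the latter lacking both phosphatases. With Phlpp2 were 3 WT and 3 Phlpp1 KO libraries. Each side of the comparison thus held 3 libraries with and 3 without Phlpp1, and Phlpp1 status was a second term of the model. The cells were released from epiphyses of mice aged 5 days with collagenase II and cryopreserved. They were cultured overnight in serum-containing medium after thawing, so that they are short-term cultures and not cartilage as it stands in the animal. The labels give the alleles as -/- and name no Cre line, so loss is not labelled as limited to chondrocytes. The labels do not say whether a library is 1 animal or a pool, so the p-values below measure the spread between these libraries.

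PHLPP1 and PHLPP2 are protein phosphatases named for their pleckstrin homology domain and leucine-rich repeats. They remove a phosphate from the hydrophobic motif of AKT and other AGC kinases such as protein kinase C and p70 S6 kinase, and so dampen growth factor signalling. In the growth plate, AKT and ERK signals act on chondrocyte division, matrix production and hypertrophic maturation. The study as titled concerns Phlpp1 and the phosphorylated proteins of chondrocytes, and the Phlpp2 arm of its design asks what the second phosphatase adds at the level of RNA.

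Library totals ran from 21706337 to 33115345 counts, and 16565 of 49315 genes passed the filter on low counts. Values are in CPM, a gene's count relative to the scaled total of its library, where 1 count is worth 0.0302 to 0.0461 CPM. All mice are labelled female, yet 2 libraries stood apart in Xist, the RNA of the inactive X chromosome, with 13.9 CPM in Phlpp1 KO 1 and 3.77 CPM in Phlpp1/2 KO 1 against 278 to 587 CPM in the other 10. Phlpp1/2 KO 1 also held 108.5 CPM from Y-linked genes, and Phlpp1 KO 1 held 0. The strain label ends in a different number in 4 libraries, Phlpp2 KO 3 and all 3 Phlpp1/2 KO, and these all lack Phlpp2. Strain as labelled and Phlpp2 loss therefore cannot be told apart in those libraries. Chondrocyte markers were abundant throughout, Col2a1 at 20753 to 40258 CPM and Acan at 2993 to 4924 CPM.

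The targeted gene was lower in every library labelled as lacking it, but its transcript was not absent. Phlpp2 (ENSMUSG00000031732, chromosome 8, 109868542 to 109944671, GRCm38) stood at 28.1, 22.4 and 25.8 CPM in WT and at 24.9, 22.8 and 24.9 CPM in Phlpp1 KO. It stood at 17.1, 16.8 and 19.4 CPM in Phlpp2 KO and at 11.1, 10.2 and 11.4 CPM in Phlpp1/2 KO. The groups of 6 did not overlap, and both genotypes without Phlpp2 also lay apart from each other. Over all 12 libraries the log2 change was -0.83 (SE 0.11, adjusted p = 0.0244, edgeR's quasi-likelihood test, adjusted by Benjamini-Hochberg over all tested genes). The sources used here do not say which exons are deleted, and counts from exons outside the deletion do not check the knockout. Phlpp1 separated by its own genotype and not by Phlpp2 status. It ranged from 35.1 to 44.6 CPM in WT and Phlpp2 KO and from 7.71 to 9.46 CPM in Phlpp1 KO and Phlpp1/2 KO, with a log2 change of -0.04 (SE 0.07) for Phlpp2 loss.

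Few genes differed. At an adjusted p under 0.05, 5 of 16565 tested genes were called, or 0.0302%. Of these, 2 rose (0.0121%) and 3 fell (0.0181%). Beside Phlpp2 itself they were Ndrg4, Ciapin1, Sox11 and Gm15446. At an unadjusted p under 0.05 there were 1038 genes (6.27%), where 828 would fall under that limit by chance. The term for Phlpp1 loss in the same fit called 42 genes, 19 higher and 23 lower. The median log2 change over all tested genes was -0.00047, and 49.9% of them were higher without Phlpp2. Groups of 6 did not overlap for 24 genes that were higher (0.145% of tested genes) and 29 that were lower (0.175%).

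Ndrg4, a member of the NDRG family of hydrolase-fold proteins known from brain and heart, fell in both backgrounds. It stood at 19.5, 18.3 and 18.9 CPM in WT and at 17.0, 17.8 and 15.5 CPM in Phlpp1 KO. Without Phlpp2 it stood at 14.7, 13.5 and 15.1 CPM in Phlpp2 KO and at 11.9, 11.8 and 12.1 CPM in Phlpp1/2 KO. The lowest library with Phlpp2 lay just above the highest without it, at 15.5 against 15.1 CPM. The log2 change was -0.44 (SE 0.06, adjusted p = 0.0244 by edgeR's quasi-likelihood test). Ndrg4 (ENSMUSG00000036564) lies on chromosome 8 at 95676980 to 95715119, on the same chromosome as Phlpp2.

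Ciapin1, which encodes a protein of the cytosolic iron-sulfur cluster assembly machinery, rose. Its values were 62.6, 67.7 and 72.0 CPM in WT and 72.6, 74.4 and 65.9 CPM in Phlpp1 KO. They were 87.2, 80.8 and 81.7 CPM in Phlpp2 KO and 115, 122 and 105 CPM in Phlpp1/2 KO. As with Phlpp2, the double knockouts stood farthest from the controls. The log2 change was 0.50 (SE 0.07, adjusted p = 0.0392 by edgeR's quasi-likelihood test). Ciapin1 (ENSMUSG00000031781, chromosome 8, 94819804 to 94838358) also shares stretches of at least 95% identity with 28 other annotated genes, the longest an 863-base stretch 96.5% identical to the ribosomal protein gene Rpl7a. How the authors' counting treated reads that match several genes is not given in the sources used here, so its value is uncertain.

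Sox11, a SoxC transcription factor of skeletal progenitors and developing joints, rose as well. It was 22.8, 16.5 and 18.6 CPM in WT and 27.6, 20.9 and 24.6 CPM in Phlpp1 KO. It was 30.8, 30.7 and 30.8 CPM in Phlpp2 KO and 31.0, 34.5 and 34.7 CPM in Phlpp1/2 KO. All 6 libraries without Phlpp2 lay above all 6 with it. The log2 change was 0.56 (SE 0.08, adjusted p = 0.0428 by edgeR's quasi-likelihood test), and no stretch shared with another gene was found for it. Sox11 (ENSMUSG00000063632) lies on chromosome 12 at 27334264 to 27342574.

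Gm15446 (ENSMUSG00000090015, chromosome 5, 109923400 to 109943936) is a predicted protein-coding gene outside the naming rule, named here after its values were seen. It stood at 5.16, 5.33 and 3.63 CPM in WT and at 5.12, 0.493 and 4.15 CPM in Phlpp1 KO. All 6 libraries without Phlpp2 were at 0.245 to 0.615 CPM. The low library among the controls, Phlpp1 KO 2, lay within the range of the knockouts, so the groups overlapped. Its log2 change was -3.39 (SE 0.47, adjusted p = 0.0392 by edgeR's quasi-likelihood test). It shares 1765 bases at 97.4% identity with Zfp932, a zinc finger gene, and matches 4 genes in all, so its counts are uncertain.

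**Figure D1:**
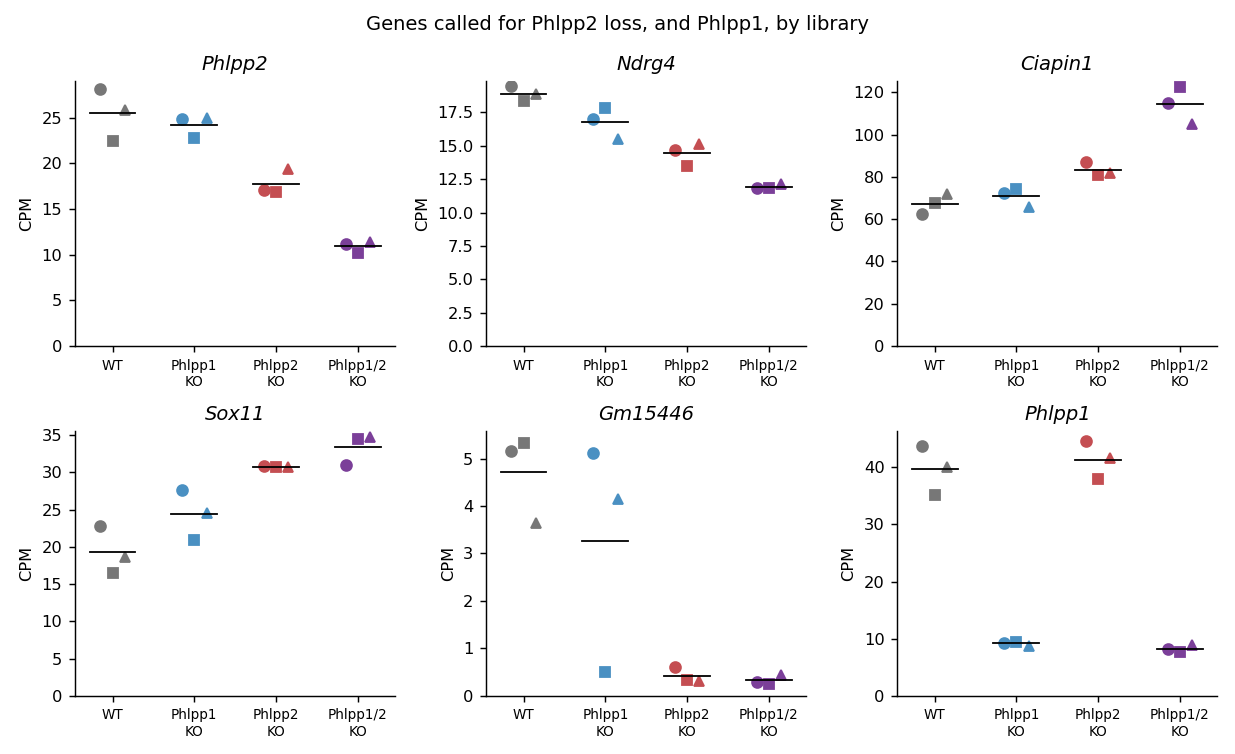
Each panel gives the CPM of 1 gene in the 12 libraries by genotype, on a linear axis from 0, where circle, square and triangle are replicates 1, 2 and 3 and the bar is the mean of 3. Phlpp2, Ndrg4, Ciapin1 and Sox11 separate the 6 libraries without Phlpp2 from the 6 with it, Gm15446 does so but for Phlpp1 KO 2, and Phlpp1 follows its own genotype.

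These calls depended on single libraries. No gene was called by edgeR's quasi-likelihood test when any 1 of WT 1, Phlpp1 KO 3, Phlpp2 KO 1, Phlpp2 KO 2, Phlpp1/2 KO 2 or Phlpp1/2 KO 3 was left out, where 830 to 1415 genes were under an unadjusted p of 0.05. Phlpp2 and Ndrg4 were each called in 5 of the 12 fits that leave out 1 library, Sox11 and Gm15446 in 2 and Ciapin1 in 1. The direction of these 5 genes was the same in all 12. With Phlpp1 KO 1 and Phlpp1/2 KO 1 both left out, Sox11 was still called (log2 change 0.65, adjusted p = 0.0305 by edgeR). In that fit Phlpp2 (-0.76), Ndrg4 (-0.42), Ciapin1 (0.47) and Gm15446 (-3.19) were not, at adjusted p-values of 0.0706, 0.0706, 0.0941 and 0.0660. Leaving out the 4 libraries that carry another strain label takes out every Phlpp1/2 KO library and leaves 2 without Phlpp2. The Phlpp2 term then compares Phlpp2 KO 1 and 2 with WT, in the Phlpp1-present background alone. This holds wherever that fit is given below. In it none of the 5 passed, and Phlpp2 was at -0.59 (adjusted p = 0.121 by edgeR).

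Differences were unevenly spread along the genome. On chromosome 12, of 38 tested genes that start between 20 and 30 Mb, 12 were at an unadjusted p under 0.01, or 31.6%, against 1.32% of all tested genes. Among 239 windows of 10 Mb with 20 or more tested genes, no other held over 20%. Of the 12 genes, 4 were higher and 8 lower without Phlpp2, and Sox11 alone was called. Most of the 12 are annotated as pseudogenes or noncoding RNAs, and several stayed under 1 CPM in every library, such as Gm4425, Gm21989 and 3110053B16Rik. The last of these overlaps Zfp125, another of the 12, and shares 549 bases with it at 100% identity. Their counts may therefore not be separate. Outside 20 to 30 Mb the chromosome had 11 of 520 genes at an unadjusted p under 0.01, or 2.12%. Of these, 2 start between 10 and 20 Mb. The window was picked for being the highest, so its count is a description. The count rested on single libraries in part. It was 9 of 40 without WT 2, 8 of 40 without Phlpp2 KO 1 and 10 of 39 without the 4 libraries with another strain label. It was 13 of 39 without Phlpp1/2 KO 1 and 15 of 39 without both low-Xist libraries.

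Kcnf1, a modulatory potassium channel subunit, lies just outside the window and starts at 17172100. It was at 3.80, 3.42 and 3.98 CPM in WT and 3.63, 3.45 and 2.59 CPM in Phlpp1 KO. It was at 1.77, 1.72 and 2.38 CPM in Phlpp2 KO and 2.48, 1.499 and 2.04 CPM in Phlpp1/2 KO. The groups did not overlap, but the gene was not called (log2 change -0.81, SE 0.14, adjusted p = 0.146 by edgeR). Kidins220 and Itgb1bp1 are 2 of the 12 genes inside the window. Kidins220, a membrane scaffold for neurotrophin receptors, was at 121 to 156 CPM with Phlpp2 and 109 to 127 CPM without it, a log2 change of -0.26 (SE 0.06). Itgb1bp1, which binds the tail of integrin beta 1, was at 35.8 to 39.1 CPM with Phlpp2 and at 39.2 to 43.9 CPM without it, a log2 change of 0.15 (SE 0.04). Neither was called. The genes of this stretch were chosen after their values were seen, apart from Sox11.

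**Figure D2:**
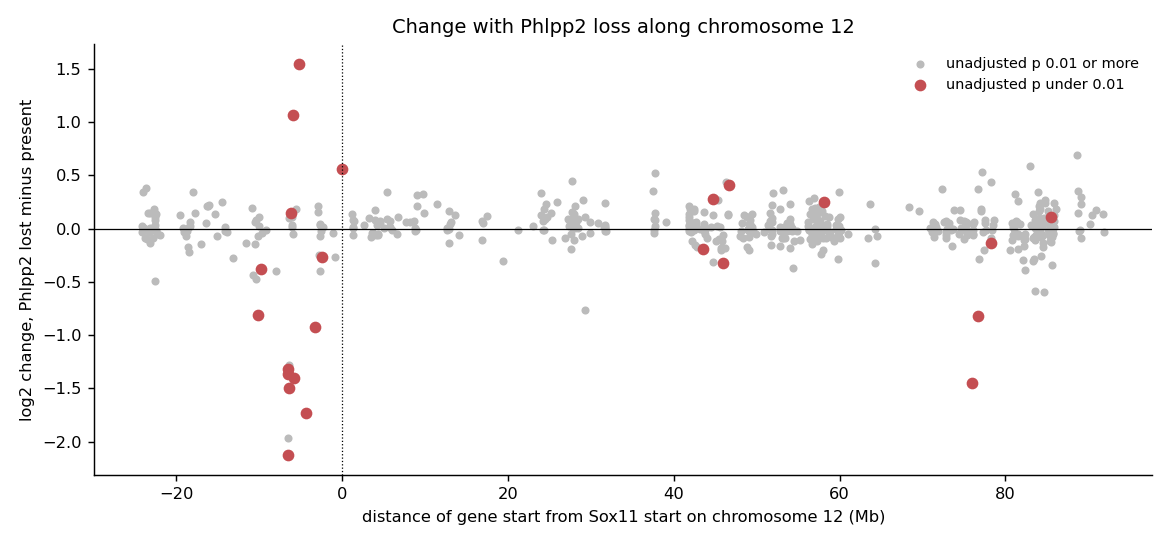
Every tested gene of chromosome 12 is drawn at the distance of its start from the start of Sox11, in Mb, against its log2 change without Phlpp2. Red points are at an unadjusted p under 0.01, and they are densest at negative distances of up to about 10 Mb, both above and below 0.

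For a pair of noncoding transcripts of that stretch the Phlpp1/2 KO libraries differed among themselves, while for Sox11 and Kidins220 all 3 lay outside the range of the libraries with Phlpp2. Zfp125, annotated as a transcribed pseudogene of the zinc finger class, was at 5.23 to 7.17 CPM in the 6 libraries with Phlpp2. It was at 1.56, 1.92 and 1.23 CPM in Phlpp2 KO, and at 4.41, 0.979 and 4.43 CPM in Phlpp1/2 KO 1, 2 and 3. The long noncoding RNA 2410018L13Rik was at 2.88 to 3.33 CPM with Phlpp2 and at 0.289, 0.364 and 0.307 CPM in Phlpp2 KO. In Phlpp1/2 KO 1, 2 and 3 it was at 2.93, 0.459 and 1.77 CPM. Phlpp1/2 KO 1 thus lay near the libraries with Phlpp2, Phlpp1/2 KO 2 near the Phlpp2 KO libraries, and Phlpp1/2 KO 3 near the former for Zfp125 and in between for 2410018L13Rik. Neither was called, and both share stretches with other genes, 17 for Zfp125 and 28 for 2410018L13Rik.

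A like split by library was seen in 2 copies of Odc1 on other chromosomes. Odc1 shares stretches with 13 other genes, and these 2 were picked after their values were seen. Odc1 encodes ornithine decarboxylase, the first and rate-limiting enzyme of polyamine synthesis, and starts on chromosome 12 at 17544794. Gm7993 on chromosome 5 (95974240 to 95975623) and Gm17709 on chromosome 8 (121972727 to 121973822) are processed pseudogenes, copies of a spliced transcript. They match Odc1 over 1388 bases at 95.7% identity and over 937 bases at 97.8%. The lines below show how close the 3 are, over 120 bases of the Odc1 coding sequence (bases 921 to 1040 of 1383, counted from the start codon) and the matching bases of the copies (922 to 1041 of the Gm7993 and 633 to 752 of the Gm17709 transcript, GENCODE vM21, GRCm38), 5′ to 3′. Capitals in the copies mark bases that differ from Odc1, 4 in Gm7993 and 2 in Gm17709, and capitals in Odc1 mark each position where either copy differs.
Odc1: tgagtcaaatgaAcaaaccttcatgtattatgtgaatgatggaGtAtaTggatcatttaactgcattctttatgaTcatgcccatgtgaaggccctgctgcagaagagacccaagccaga
Gm7993: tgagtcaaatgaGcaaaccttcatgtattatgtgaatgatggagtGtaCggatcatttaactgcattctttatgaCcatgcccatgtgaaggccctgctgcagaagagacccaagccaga
Gm17709: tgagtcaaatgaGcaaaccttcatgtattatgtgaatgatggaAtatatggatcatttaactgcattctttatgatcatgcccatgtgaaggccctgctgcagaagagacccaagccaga

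Odc1 itself was at 574, 571 and 546 CPM in WT and 612, 649 and 593 CPM in Phlpp1 KO. It was at 467, 365 and 370 CPM in Phlpp2 KO and at 593, 421 and 520 CPM in Phlpp1/2 KO. Its log2 change of -0.38 (SE 0.09) was not called (adjusted p = 0.359 by edgeR's quasi-likelihood test). Phlpp1/2 KO 1 lay within the range of the libraries with Phlpp2, and the other 5 below it.

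Gm7993 went the other way and by far more. It was at 4.31 to 6.65 CPM in the 6 libraries with Phlpp2 and at 110, 95.1 and 92.8 CPM in Phlpp2 KO. In Phlpp1/2 KO 1, 2 and 3 it was at 5.67, 111 and 56.7 CPM. The first of these stood with the controls, the second with Phlpp2 KO and the third between them. The log2 change of 3.81 (SE 0.54) just missed the threshold (adjusted p = 0.0524 by edgeR), and without Phlpp1/2 KO 1 it passed (adjusted p = 3.1e-06). Gm17709, the other copy picked, was at 0.994 to 1.68 CPM with Phlpp2, at 6.11, 4.003 and 5.21 CPM in Phlpp2 KO, and at 1.51, 4.80 and 3.22 CPM in Phlpp1/2 KO.

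Summed over Odc1, Gm7993 and Gm17709 alone, the 6 libraries with Phlpp2 held 553 to 655 CPM and the 6 without it 464 to 600 CPM. Other genes that match Odc1 are not in that sum. Gm7993 and Gm17709 took 0.923% to 1.37% of that sum with Phlpp2. They took 19.98%, 21.4% and 21.0% in Phlpp2 KO and 1.197%, 21.6% and 10.3% in Phlpp1/2 KO 1, 2 and 3. The reads were not used here, so whether the counts of the copies are reads of Odc1 was not tested.

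A copy of another gene, Ywhaq, was split by library in a like way. Ywhaq shares stretches with 7 other genes, and the copy was picked after its values were seen. Gm2423, a processed pseudogene on chromosome 13, matches Ywhaq over 733 bases at 99.7% identity, and Ywhaq, which encodes the 14-3-3 theta adaptor, lies in the same window of chromosome 12. Gm2423 was at 1.38 to 2.53 CPM with Phlpp2, at 3.91, 5.79 and 5.79 CPM in Phlpp2 KO and at 1.42, 5.45 and 3.49 CPM in Phlpp1/2 KO 1, 2 and 3. Ywhaq itself was far higher and showed no such split, at 249 to 270 CPM with Phlpp2 and 239 to 263 CPM without it. Gm2423 was not called (log2 change 1.25, SE 0.27, adjusted p = 0.359 by edgeR).

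**Figure D3:**
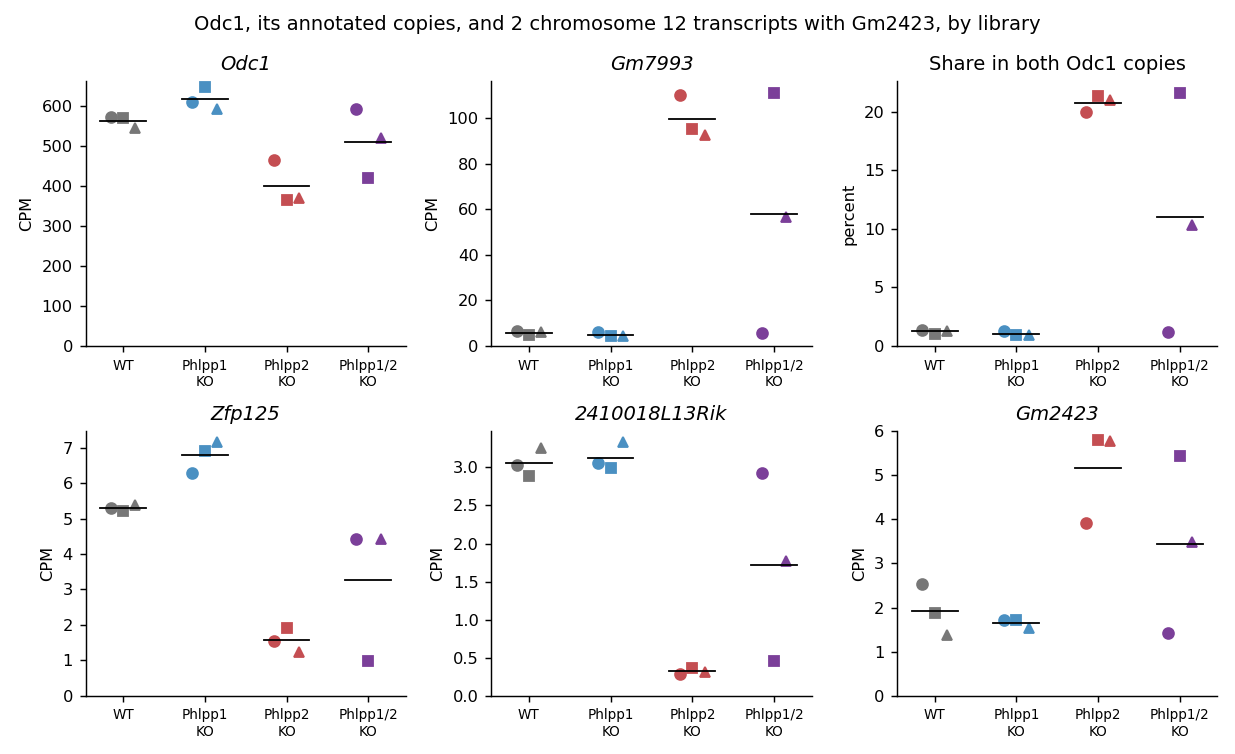
Panels give CPM by library for Odc1, its copy Gm7993, Zfp125, 2410018L13Rik and Gm2423. A further panel gives the percent of the sum of Odc1, Gm7993 and Gm17709 that falls on Gm7993 and Gm17709. Circle, square and triangle are replicates 1, 2 and 3, and bars are means of 3. In each panel the Phlpp2 KO libraries lie outside the range of the libraries with Phlpp2. Phlpp1/2 KO 1 lies within that range or nearer to it than to the Phlpp2 KO libraries. Phlpp1/2 KO 2 lies nearer to the Phlpp2 KO libraries than to that range.

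Chromosome 8 around Phlpp2 showed a smaller excess. Within 20 Mb of Phlpp2, itself left out, 344 genes were tested and 2 were called, Ndrg4 and Ciapin1. At an unadjusted p under 0.01 stood 9 genes (2.62%, against 1.32% of all tested genes), 3 higher and 6 lower, and at p under 0.05 stood 26 (7.56% against 6.27%). By windows of 10 Mb the former were uneven. Of genes that start between 90 and 100 Mb, 6 of 61 were at p under 0.01 (9.84%), Ndrg4 and Ciapin1 among them. Between 100 and 110 Mb it was 2 of 107, Phlpp2 included, and between 110 and 120 Mb 0 of 63. Of the 9 genes within 20 Mb, the 7 besides Ndrg4 and Ciapin1, chosen after their values were seen, were not called. Cpne2, a calcium-dependent phospholipid-binding copine, had a log2 change of -0.24, the kinesin gene Kifc3 -0.28 and the kinase subunit gene Csnk2a2 -0.13. Ripor1 had -0.14 and the noncoding Gm42047 -0.58. Usb1, an exonuclease that trims U6 small nuclear RNA, had 0.22, and Gm17709, the Odc1 copy described above, 1.56. Usb1 was at 28.3 to 29.6 CPM in Phlpp2 KO and at 34.3 to 37.7 CPM in Phlpp1/2 KO, with 26.3 to 30.6 CPM in the 6 libraries with Phlpp2, so only the double knockouts stood clear of the controls.

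An additive model gives 1 change for both Phlpp1 backgrounds, so the backgrounds were also set side by side. Phlpp2 KO minus WT and Phlpp1/2 KO minus Phlpp1 KO share no library. Over 9279 genes with a mean of at least 10 CPM, their log2 changes had a Pearson r of -0.259 and a Spearman coefficient of -0.290, and 39.9% of genes had the same sign. Over all 16565 tested genes r was 0.04 and the Spearman coefficient -0.125, with 44.0% of the same sign. These figures are across genes, which are not independent replicates. Most genes thus had opposite signs in the 2 backgrounds. Each background alone had 6 libraries. The Phlpp1-present one had 2281 genes at an unadjusted p under 0.05 and 20 called, and the Phlpp1-lost one had 1308 and 2.

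The called genes kept their direction in both backgrounds. They were selected by a term fitted over both, which favours genes with the same sign in each, so this is a description. Phlpp2 had a log2 change of -0.52 (SE 0.09) with Phlpp1 present and -1.15 (SE 0.10) with Phlpp1 lost, a difference with an adjusted p of 0.151 by edgeR's test of the interaction. Ciapin1 had 0.30 (SE 0.07) and 0.69 (SE 0.07), with the same adjusted p of 0.151. Ndrg4 had -0.39 and -0.49 (SE 0.08 for both), and Sox11 had 0.68 (SE 0.12) and 0.45 (SE 0.11). Gm15446 had -3.48 (SE 0.70) and -3.29 (SE 0.72).

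**Figure D4:**
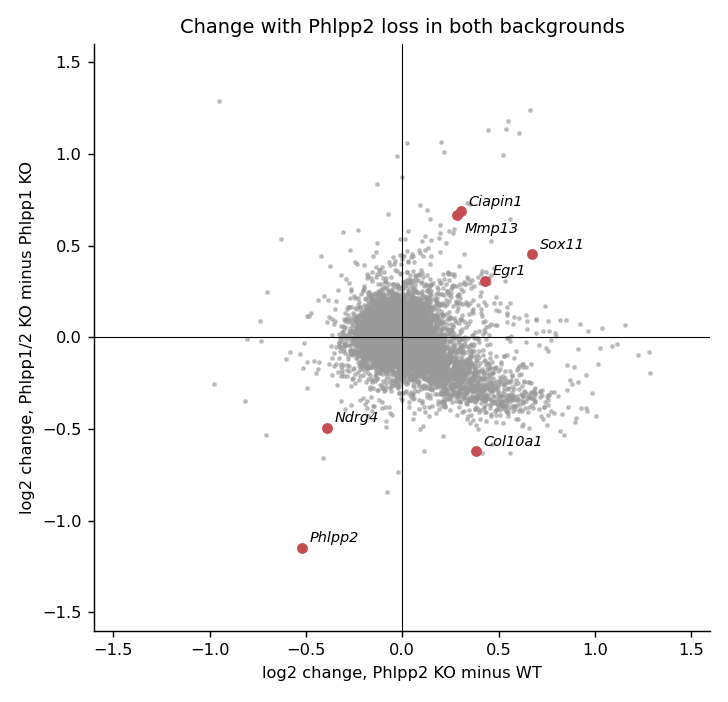
Each gray point is a gene with a mean of at least 10 CPM, with its log2 change in Phlpp2 KO minus WT on the horizontal axis and in Phlpp1/2 KO minus Phlpp1 KO on the vertical, both cropped at 1.6. The cloud leans from upper left to lower right (Pearson r -0.259). Sox11, Ciapin1, Mmp13 and Egr1 lie above 0 on both axes and Phlpp2 and Ndrg4 below 0 on both. The called genes among them were selected over both backgrounds.

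A formal interaction was called for 8 genes (0.0483% of tested genes), and 2410 were at an unadjusted p under 0.05. In all 8 the 3 WT libraries stood apart from the other 9. The one gene among them that the naming rule admits was mt-Nd3, a mitochondrial subunit of respiratory complex I. It was at 18.6, 21.3 and 19.2 CPM in WT and at 1.18 to 2.203 CPM in the other 9 libraries, with an interaction of 3.93 on the log2 scale (SE 0.26, adjusted p = 5.4e-06 by edgeR). The other 7 are annotated pseudogenes. Gm28438 is 99.7% identical to mt-Nd3 over 345 bases, and it was lower in WT, at 2.18 to 3.42 CPM against 13.1 to 26.1 CPM elsewhere. Rps2-ps10, 98.1% identical to the ribosomal gene Rps2 over 939 bases, was at 504 to 609 CPM in WT and at 14.8 to 21.7 CPM elsewhere. Rps2 was in turn lower in WT, at 1573 to 1822 CPM against 2511 to 2992 CPM in the other 9. A main effect on mt-Nd3 or Rps2 would therefore be the mean of a difference in one background and none in the other.

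Genes of the AKT pathway, on whose kinases PHLPP2 acts at the protein level, differed little in size. Of 30 tested genes of the AKT and PI3K pathway 10 were higher and 20 lower, with a median log2 change of -0.02, and Phlpp2 was the only one called. Akt1 and Akt2, which encode AKT kinases, had log2 changes of -0.02 (SE 0.05) and 0.01 (SE 0.06), with overlapping groups and a sign that some of the alternative fits turned. Akt1 was at 367 to 416 CPM with Phlpp2 and 360 to 411 CPM without it. Irs2, an adaptor of the insulin receptor, had -0.17 (SE 0.07) and Rptor, the mTORC1 scaffold raptor, -0.13 (SE 0.06), both uncalled. Among 19 other AGC kinases and PHLPP substrates 6 were higher and 13 lower, none called, and the S6 kinases of the RSK family Rps6ka1 (-0.18) and Rps6ka2 (-0.20) were the 2 at an unadjusted p under 0.05. Without the 4 libraries with another strain label the AKT list was 14 and 16, with 6 genes at that limit against 2, and the other AGC kinases were 11 and 8.

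Immediate early genes, which growth factors switch on within minutes through ERK and serum response factor, tended upward without any call. Of 22 tested, 15 were higher and 7 lower, 4 higher and 0 lower at an unadjusted p under 0.05, with a median of 0.06. The share of all genes at that limit was 2.98% for higher and 3.29% for lower. Egr1, a zinc finger factor, was at 52.0 to 92.1 CPM with Phlpp2 (median 64.8) and 67.8 to 113 CPM without it (median 80.5). Egr1 had a log2 change of 0.37 (SE 0.09, adjusted p = 0.498 by edgeR). By genotype it was at 52.0 to 61.0 CPM in WT and 67.8 to 79.3 CPM in Phlpp2 KO, but at 68.7 to 92.1 CPM in Phlpp1 KO, so the overlap came from the Phlpp1 KO libraries. Fos, the AP-1 partner of JUN proteins, had 0.25 (SE 0.08), Junb 0.22 (SE 0.08) and Ier2 0.14 (SE 0.05). Without both low-Xist libraries the list stood at 11 higher and 11 lower.

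ERK feedback genes were near even, 9 higher and 12 lower of 21, none called. The receptor gene Fgfr1 (-0.11) was the one at an unadjusted p under 0.05, and the ETS factor gene Etv1 had 0.23. FOXO factors and their targets, which AKT restrains, leaned lower, 6 higher and 21 lower of 27, with a median of -0.04 and 4 lower at an unadjusted p under 0.05. These were Foxo4 (-0.17), the thioredoxin inhibitor gene Txnip (-0.15), Irs2 and Foxo3 (-0.11), and none was called. Leaving out Phlpp2 KO 1 brought that list to 14 higher and 14 lower of 28, with 2 at that limit, and without the 4 libraries with another strain label 1 was. BCL2 family genes, which set the threshold for cell death, were 6 higher and 7 lower of 13, with Bok at 0.09 and Bcl2l1 at -0.06.

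Cartilage matrix genes were slightly lower on average and none was called. Of 24 tested, 4 were higher and 20 lower, with a median of -0.16, and Acan alone was at an unadjusted p under 0.05. Acan, the aggrecan core protein, was at 3552 to 4924 CPM with Phlpp2 (median 4118) and at 2993 to 3952 CPM without it (median 3577). Its log2 change of -0.25 (SE 0.09, adjusted p = 0.742 by edgeR) was the same size in both backgrounds, -0.25 in each. Col2a1, the type II collagen chain, had -0.20 (SE 0.13) with overlapping groups. Chondrocyte markers were lower for 9 of 9 tested, and the summed level of those markers overlapped between groups. Without both low-Xist libraries the median of the matrix list was -0.06, with 8 higher and 16 lower.

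Among chondrocyte transcription factors, 9 were higher and 14 lower of 23, and Sox11 was the only one called. Sox9, the master factor of the lineage, was at 289 to 407 CPM with Phlpp2 and 215 to 406 CPM without it, a log2 change of -0.12 (SE 0.13). Runx2, which drives hypertrophy, had 0.02 (SE 0.08), Runx3 -0.14 (SE 0.06) and Sox4, another SoxC factor, -0.18 (SE 0.07). Sox4 and Sox11 thus had opposite signs, and Sox4 was not called. Without Phlpp2 KO 1 the list was 14 higher and 9 lower, with a median of 0.025 in place of -0.034.

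Hypertrophy and mineralisation genes were 12 higher and 7 lower of 19, none called. Mmp13, the collagenase of late hypertrophic cells, was at 87.9 to 211 CPM with Phlpp2 (median 157) and 157 to 280 CPM without it (median 202). The log2 change of Mmp13 was 0.48 (SE 0.15, adjusted p = 0.734 by edgeR), and the groups overlapped. Col10a1, the hypertrophic collagen, spread more widely, at 651 to 1014 CPM with Phlpp2 and 387 to 1194 CPM without it. Its log2 change was 0.38 (SE 0.28) with Phlpp1 present and -0.62 (SE 0.28) with Phlpp1 lost. The phosphate transporter gene Slc20a1 had -0.15 and the pyrophosphate exporter gene Ank -0.23, both uncalled. Ank had its lowest library at 210 CPM in Phlpp2 KO 1. Without the 4 libraries with another strain label the list was 7 higher and 12 lower.

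Matrix proteases and inhibitors leaned higher, 16 higher and 7 lower of 23, with a median of 0.12 and 4 higher at an unadjusted p under 0.05. Those 4 were Mmp13, the aggrecanase gene Adamts5 (0.42, SE 0.16), the gelatinase gene Mmp2 (0.16, SE 0.06) and its activator Mmp14 (0.12, SE 0.05). Without both low-Xist libraries 2 protease genes were at that limit, as many as without the 4 libraries with another strain label. Articular and superficial zone genes were 13 higher and 6 lower of 19. Prg4, the lubricant lubricin, was at 80.7 to 170 CPM with Phlpp2 and 105 to 173 CPM without it, and Abi3bp, a matrix protein, had 0.34 (SE 0.18). None of these genes was called.

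Signalling lists of the growth plate held no call. Hedgehog and PTHrP genes were 4 higher and 12 lower of 16, with the ligand gene Dhh at -0.26 and the factor gene Gli2 at -0.16. TGF-beta and BMP genes were 16 and 17 of 33, with the ligand gene Bmp4 at 0.30 (SE 0.14) and the receptor gene Tgfbr2 at -0.10. WNT genes were 11 and 23 of 34. Rspo3, a secreted enhancer of WNT signals, was at 4.37 to 10.7 CPM with Phlpp2 and 6.92 to 14.9 CPM without it (0.52, SE 0.15), and Axin2, a feedback inhibitor and common WNT readout, had -0.32 (SE 0.14). Genes of the IGF system were 5 and 12 of 17, the binding protein genes Igfbp5 and Igfbp3 each at -0.18. The majority of some of these lists turned with the libraries used. Without Phlpp2 KO 1 the Hedgehog and PTHrP genes were 9 higher and 7 lower, with a median of 0.00082 in place of -0.048. They were 3 and 13 without Phlpp1/2 KO 1. Without the 4 libraries with another strain label they were 0 and 16, with a median of -0.22. TGF-beta and BMP genes were 18 and 15 without Phlpp1/2 KO 1, 19 and 14 without both low-Xist libraries and 18 and 15 without the 4 libraries with another strain label. The IGF genes were 9 and 8 without those 4. WNT genes at an unadjusted p under 0.05 numbered 2 with all libraries, 5 without WT 2 and 6 without those 4.

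The cell cycle list had the most members at an unadjusted p under 0.05, but 0 of them at p under 0.01. Of 37 tested, 28 were higher and 9 lower, with a median of 0.30, and none was called. At an unadjusted p under 0.05 stood 19 higher and 0 lower, where the share of all genes was 2.98% for higher and 3.29% for lower. Ccnb1, the mitotic cyclin B1, was at 38.2 to 76.2 CPM with Phlpp2 (median 51.4) and at 49.9 to 82.4 CPM without it (median 75.2), a log2 change of 0.42 (SE 0.15, adjusted p = 0.742 by edgeR). Kif23, a kinesin of the dividing cell's midbody, had 0.38 (SE 0.14), Birc5, the chromosomal passenger survivin, 0.35 (SE 0.13), and Foxm1, the factor that drives mitotic genes, 0.26 (SE 0.09). The list's summed level overlapped, at 4232 to 4984 CPM with Phlpp2 and 4256 to 5393 CPM without it. Without Phlpp1/2 KO 1 the count at an unadjusted p under 0.05 was 10, and without the 4 libraries with another strain label it was 8. It was 16 without WT 2, 19 without Phlpp2 KO 1, with a median of 0.39, and 22 without both low-Xist libraries.

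The circadian clock list was the reverse in sign. Of 22 tested, 5 were higher and 17 lower, 0 higher and 5 lower at an unadjusted p under 0.05, with a median of -0.08. Nr1d1, the repressor REV-ERB alpha, was at 54.1 to 76.7 CPM with Phlpp2 (median 64.6) and 49.4 to 56.8 CPM without it (median 51.9). The log2 change of Nr1d1 was -0.32 (SE 0.07, adjusted p = 0.334 by edgeR). Dbp, a factor of clock output, was at 21.4, 26.5 and 28.6 CPM in WT and at 14.6 to 18.2 CPM in the other 9 libraries, a log2 change of -0.36 (SE 0.10). Only WT stood apart for Dbp. Per2, a core repressor, had -0.27 (SE 0.08), Tef, a relative of Dbp, -0.20 (SE 0.06) and Bhlhe41, the repressor DEC2, -0.19 (SE 0.06). At that limit were 2 higher and 7 lower without the 4 libraries with another strain label. The summed level of the 22 genes fell just short of overlap, at 821.8 to 897 CPM with Phlpp2 and 769 to 820.7 CPM without it. Taken singly, 0 of the clock genes were without overlap. Hours of collection are not in the labels, so their part in these values was not tested. Nr1d1 and Dbp overlap the genes Thra and Sphk2, whose reads may be counted with theirs.

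**Figure D5:**
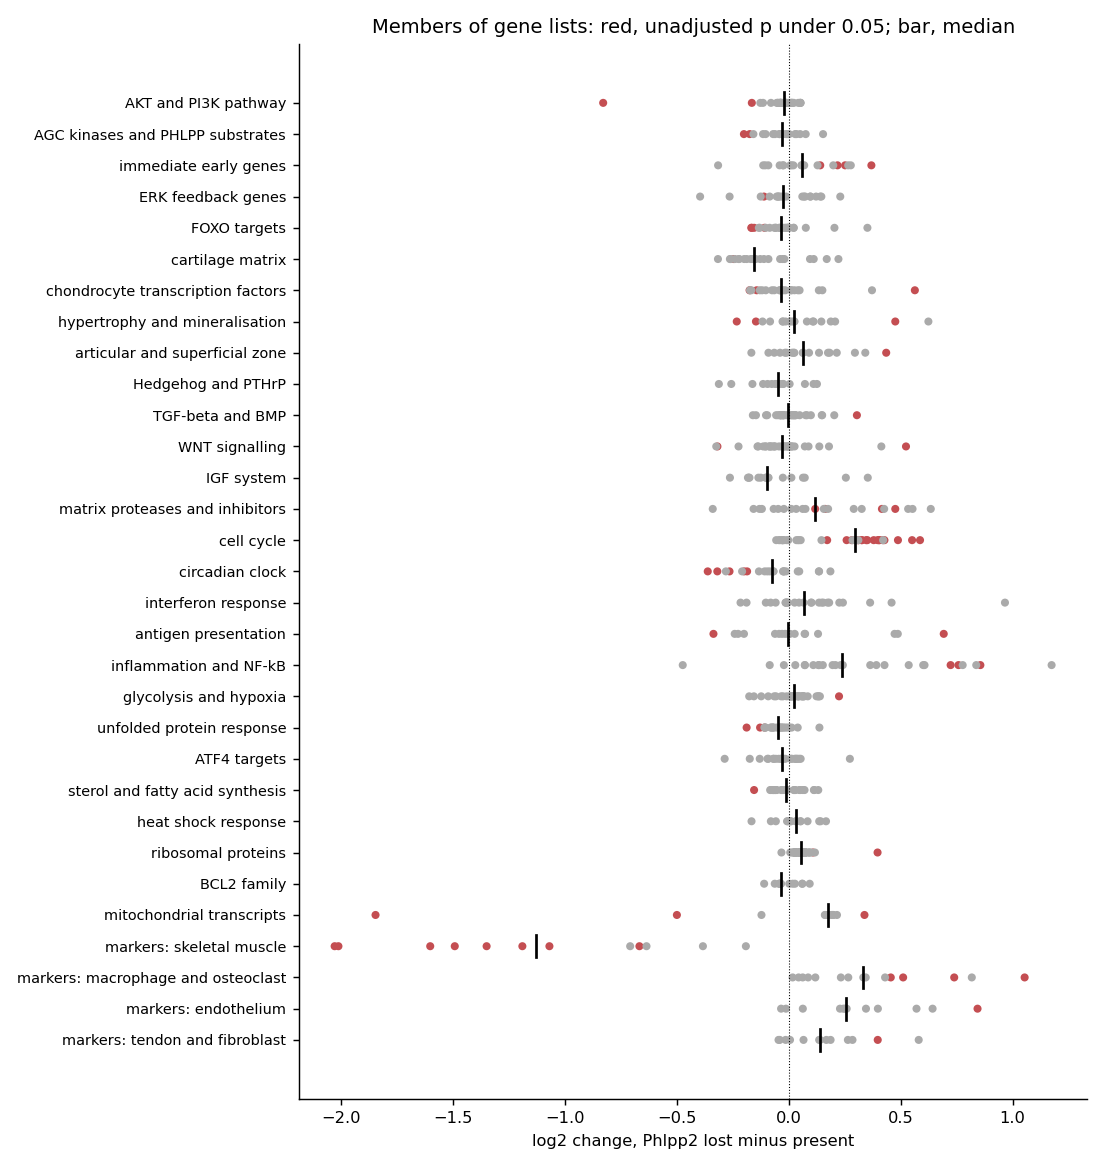
Each point is the log2 change without Phlpp2 of 1 member of a gene list with at least 10 tested members, red where its unadjusted p is under 0.05, and the black bar is the list's median. Cell cycle genes (median 0.30) and macrophage markers (0.33) lie to the right of 0 and skeletal muscle markers (-1.13) to the left, while most other medians lie close to 0.

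Stress and metabolic lists had medians near 0, and the majority in several turned with the libraries used. Genes of the unfolded protein response were 4 higher and 20 lower of 24, with a median of -0.05, and its sensors Atf6 (-0.11) and Eif2ak3 (-0.13) and the relative Creb3l2 (-0.19) were the 3 at an unadjusted p under 0.05. ATF4 targets were 9 and 13 of 22, with the transporter genes Slc7a5 at -0.17 and Slc7a11 at 0.27. They were 12 and 10 without WT 2, and 17 and 5 without both low-Xist libraries, with a median of 0.040 in place of -0.029. Sterol and fatty acid synthesis was 10 and 15 of 25, with the regulator gene Srebf1 at -0.08 and the squalene synthase gene Fdft1 at 0.13. Glycolysis and hypoxia genes were 24 and 9 of 33, with the hormone gene Adm at 0.22 and the kinase gene Pfkfb4 at -0.18. They were 18 and 15 without Phlpp1/2 KO 1, and 10 and 23 without the 4 libraries with another strain label. Heat shock genes were 10 and 5 of 15, with the small chaperone gene Cryab at 0.14 and the regulator gene Hsf1 at -0.08, and were 6 and 9 without those 4. None of these genes was called.

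Ribosomal protein genes were higher for 41 of 42, but by a median of only 0.06, and their summed level overlapped between groups. Rps2 had the largest change, 0.40 (SE 0.10), for which the WT libraries described above stood apart, and Rpl7 had 0.11 (SE 0.05). The ribosomal list had 2 members at an unadjusted p under 0.05, but 24 without WT 2, with a median of 0.099. The list was 24 higher and 18 lower without the 4 libraries with another strain label. Mitochondrial transcripts were 10 and 3 of 13, with mt-Nd3 at -1.85, mt-Nd4l at -0.50 and mt-Atp8 at 0.34. Mt-Nd4l is identical to the nuclear copy Gm10222 over 294 bases, so its counts are uncertain. Of the 13 mitochondrial transcripts 12 were at an unadjusted p under 0.05 without those 4 libraries, against 3 with them. Without them the term compares Phlpp2 KO 1 and 2 with WT alone. None of these genes was called.

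Inflammatory genes were higher on average. Of 26 tested, 23 were higher and 3 lower, 3 higher at an unadjusted p under 0.05, with a median of 0.24. Ccl5, a T cell and monocyte chemokine, was at 2.02 to 5.57 CPM with Phlpp2 (median 3.93) and 4.13 to 7.68 CPM without it (median 6.71), a log2 change of 0.72 (SE 0.18, adjusted p = 0.498 by edgeR). The neutrophil chemokine gene Cxcl1 had 0.76 (SE 0.30) and the monocyte chemokine gene Ccl2 0.86 (SE 0.38), both with overlapping groups. Macrophage and osteoclast markers moved with them, higher for 15 of 15 tested, with a median of 0.33. Their summed level was 168 to 189 CPM with Phlpp2 and 170 to 200 CPM without it, and their part in the inflammatory values was not tested. Without Phlpp1/2 KO 1, 12 of these markers were higher and 3 lower, and without both low-Xist libraries 11 and 4, with 1 inflammatory gene at an unadjusted p under 0.05. Mpeg1, a macrophage perforin, had 0.45 (SE 0.16) and Mrc1, the mannose receptor, 0.51 (SE 0.22). Interferon response genes were 15 and 10 of 25, with Gbp2 at 0.46 (SE 0.25) and Irf1 at 0.13 (SE 0.08). They were 7 and 17 of 24 without the 4 libraries with another strain label. Antigen presentation genes were 8 and 9 of 17, with the class II chain gene H2-Ab1 at -0.34 (SE 0.12) and the class II loading gene H2-DMa at -0.24, and were 9 and 8 without WT 2 and 11 and 6 without Phlpp2 KO 1. None of these genes was called.

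Skeletal muscle markers were low and uneven. All 12 tested were lower without Phlpp2, 8 at an unadjusted p under 0.05, with a median of -1.13, and none was called. Myog, the muscle differentiation factor myogenin, was at 6.16, 30.7 and 5.47 CPM in WT and 1.62, 11.8 and 12.4 CPM in Phlpp1 KO. It was at 1.11 to 5.38 CPM in the 6 libraries without Phlpp2. WT 2 was far above all others, and Phlpp1 KO 1 lay within the range of the knockouts. Actc1, cardiac alpha actin, had -2.03 (SE 0.65), Myod1, the muscle determination factor, -1.603 (SE 0.56) and Ttn, the giant sarcomere protein titin, -0.67 (SE 0.26). The markers' summed level was 13.5 to 140 CPM with Phlpp2 and 9.85 to 36.4 CPM without it. Without WT 2, the list's median was -0.49 and 3 genes were at an unadjusted p under 0.05, as many as without Phlpp2 KO 1. That number was 5 without Phlpp1/2 KO 1 and 1 without the 4 libraries with another strain label. It was 10 of 13 without both low-Xist libraries, with a median of -1.38. In bulk libraries fewer cells of a type and less RNA per cell cannot be told apart.

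None of the markers of other cell types was called. Summed tendon and fibroblast markers were at 886 to 1263 CPM with Phlpp2 and 830 to 1396 CPM without it. Summed osteoblast markers were at 695 to 1069 CPM with Phlpp2 and 525 to 1196 CPM without it. Endothelial markers were 10 higher and 2 lower of 12, with a summed level of 10.3 to 27.7 CPM with Phlpp2 and 15.2 to 25.1 CPM without it, with Egfl7 at 0.23 and Cdh5 at 0.57. Tendon and fibroblast markers were 10 and 3 of 13, with the surface protease gene Fap at 0.40 (SE 0.15) and Thy1 at 0.28, but 5 and 8 without Phlpp2 KO 1, with a median of -0.022 in place of 0.14. Osteoblast markers were 4 and 1 of 5 tested, with the bone sialoprotein gene Ibsp at 0.62 (SE 0.38) and Phex at -0.08, and adipocyte markers 3 and 1 of 4, with Lpl at 0.14 and Fabp4 at 0.32. Schwann and neural markers were 2 and 5 of 7, with Tubb3 at 0.26 and Erbb3 at -0.43, and 4 and 3 without both low-Xist libraries or without the 4 libraries with another strain label. Of the erythroid markers and of the lymphoid and granulocyte markers 0 were abundant enough to test.

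Lypd3 stood out among 7 tested keratinocyte markers, of which 1 was higher and 6 lower. Lypd3, a surface protein of the uPAR family, was at 10.8, 9.66 and 8.79 CPM in WT and 5.62, 4.96 and 4.62 CPM in Phlpp1 KO. It was at 1.41, 3.34 and 2.61 CPM in Phlpp2 KO and 4.38, 2.11 and 3.90 CPM in Phlpp1/2 KO. The groups of 6 did not overlap, though Phlpp1 KO and Phlpp1/2 KO lay close. The log2 change was -1.26 (SE 0.29, adjusted p = 0.429 by edgeR), made up of -1.98 with Phlpp1 present and -0.55 with Phlpp1 lost. Krt17, a basal keratin, had -0.34 (SE 0.14). The summed level of the keratinocyte markers, Lypd3 included, was 24.8 to 34.1 CPM with Phlpp2 and 19.3 to 24.5 CPM without it, also just short of overlap.

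Other genes near the top of the ranking by p were uncalled, and are named after their values were seen. Slc4a11, a borate transporter relative, was at 10.3 to 17.7 CPM with Phlpp2 (median 12.6) and 7.77 to 9.33 CPM without it (median 8.61), with no overlap and a log2 change of -0.62 (SE 0.13, adjusted p = 0.328 by edgeR). Pcdh17, a protocadherin, was at 2.59 to 3.62 CPM with Phlpp2 and 1.77 to 2.49 CPM without it, also with no overlap. Spns2, which exports sphingosine 1-phosphate, had -0.40 (SE 0.08), and Angptl7, a secreted angiopoietin-like protein, 0.61 (SE 0.13). Arhgap22, a GTPase-activating protein for Rac, was at 1.12 to 2.54 CPM without Phlpp2. With Phlpp2 it was at 10.5, 2.198 and 10.3 CPM in WT and 1.75, 14.6 and 11.7 CPM in Phlpp1 KO. Libraries WT 2 and Phlpp1 KO 1 thus lay within the range of the knockouts. Arhgap22 shares 1461 bases at 97.9% identity with Gm15512, so its counts are uncertain. Esm1, a proteoglycan of activated endothelium, was at 0.161 to 0.805 CPM without Phlpp2 and 0.362 to 6.33 CPM with it, a log2 change of -2.93 (SE 0.63).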

How the data were processed

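The 12 libraries were prepared with NEBNext Ultra II reagents per the labels' protocols. The authors deposited whole-number counts per gene as 1 table. The submitters' processing notes name bcl2fastq 2.17, STAR 2.5.2b, featureCounts, Subread 1.5.2 and mm10. The strand setting, annotation release and treatment of multiply matching reads were not given in the sources used here. Counts were fitted with edgeR 4.0.16 (R 4.3.3; TMM scaling, filterByExpr by the 4 genotypes, robust quasi-likelihood test, terms for Phlpp1 and Phlpp2, 9 residual degrees of freedom). Benjamini-Hochberg adjustment covered all 16565 tested genes, and genes were called at adjusted p under 0.05. The interaction used 8 residual degrees of freedom. Tested genes held at least 99.9% of each library's counts, and 174 genes without a symbol held 0.00419%. Depth limits precision for genes of few CPM. Alternatives used DESeq2 1.42.0, limma 3.58.1, other scalings and filters, and fits without single libraries. Positions and transcripts came from GENCODE vM21 (GRCm38), matching 49056 genes. Shared stretches were found with BLAST+ (at least 95% identity over 150 bases). They are not given above for every named gene that has them. Ccnb1 shares 1294 bases at 98.1% identity with Gm12856, and Rps6ka2 3110 bases at 98.3% with Sod2. Itgb1bp1 shares 366 bases at 100% with Asap2.

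Named were Phlpp1, Phlpp2, Akt1, Akt2 and 10 further genes of cartilage, early response and clock, called genes of at least 1 CPM that are not predicted, unnamed or pseudogenes (largest 12 rises, 12 falls and 10 smallest p), and 2 to 4 genes of smallest p from each list. Some genes under this rule are not reported here. For the interaction they were the 5 called genes with the smallest p under the same skips. The comparison, its gene lists and tests were chosen with earlier results of these data known. Replicate numbers are not said to mark a shared litter, animal or day, so replicates were not paired. Deviations from the genotype means correlated at a mean r of -0.0032 in same-numbered pairs (-0.16 to 0.30) and 0.0015 in other pairs.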

Additional observations from a re-analysis of the deposited data

Results flagged for a closer look

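Each group of 6 was searched for a library that lay far from its 5 fellows, for every gene named (Dixon's ratio over 0.625). Of 248 gene and group pairs 12 were found, and about 12 are to be expected by chance. Among libraries with Phlpp2, Gm15446 was low in Phlpp1 KO 2, at 0.493 CPM with the next at 3.63, and Cpne2 was low in Phlpp1 KO 1, at 60.5 CPM with the next at 82.6. WT 2 was high in Myog (30.7 CPM, next 12.4), Actc1 (36.6 CPM, next 14.5) and Fabp4 (3.9998 CPM, next 2.64). WT 3 was high in Usb1 (30.6 CPM, next 27.8) and Tgfbr2 (216 CPM, next 183). Among libraries without Phlpp2, Phlpp2 KO 1 was low in Ank (210 CPM, next 323), Birc5 (38.3 CPM, next 56.3) and Bhlhe41 (16.7 CPM, next 17.7). Phlpp1/2 KO 2 was high in Sox4 (19.4 CPM, next 15.9) and Phlpp2 KO 3 in Cryab (44.8 CPM, next 35.3).

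The change with Phlpp2 loss differed between the Phlpp1 backgrounds, by edgeR's test of the interaction, for 8 genes, and in each the WT libraries stood apart from the other 9. On the log2 scale the difference was 4.91 for Rps2-ps10, made of -4.94 with Phlpp1 present and -0.03 with it lost. It was 3.93 for mt-Nd3 (-3.59 and 0.34), 3.13 for Gm9825 (-3.005 and 0.13), 2.57 for Gm6139 (-2.22 and 0.35) and 1.23 for Rps2-ps13 (-0.91 and 0.32). In the other direction it was -2.78 for Gm28438 (2.97 and 0.18), -1.73 for Gm10222 (1.84 and 0.11) and -0.93 for Gm28437 (0.97 and 0.04).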

How the results depend on the processing

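The 5 calls (2 higher, 3 lower) by edgeR became 26 (10 and 16) with DESeq2, 4 (2 and 2) with limma-voom, 3 (1 and 2) with upper-quartile scaling, 9 (4 and 5) with no filter and 5 (3 and 2) with a stricter filter, which moves the share of higher calls from 40% to 60%. Without both low-Xist libraries they were 4 (4 and 0), without a Phlpp1 term 0 (891 at an unadjusted p under 0.05), and as the mean of both backgrounds 15 (7 and 8). Without the 4 libraries with another strain label they were 17 (7 and 10), in a fit that holds no Phlpp1/2 KO library. Fits that left out 1 library gave 0 to 6 (0 to 4 and 0 to 5). With a replicate block the calls were 0 (952 at an unadjusted p under 0.05), and 4 of 18 same-numbered pairs correlated above 0.1 (-0.16 to 0.30). The 8 interaction calls became 650 with DESeq2, 183 with no filter, 0 among protein-coding nuclear genes, 308 with the replicate block, 4 without both low-Xist libraries and 5 to 1196 without 1 library, the last without Phlpp1/2 KO 3 and 71 without Phlpp2 KO 2. The cause of these moves was not tested.

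Phlpp2, Ndrg4, Ciapin1, Sox11 and Gm15446 kept their sign in every alternative fit that tested them. Of other named genes, these had log2 changes of turned sign, all close to 0 or uncalled. Without the 4 libraries with another strain label they were Phlpp1 (0.057), Akt2 (-0.16), Col10a1 (0.29), Runx2 (-0.13), Igfbp3 (0.11), Fdft1 (-0.030) and Cryab (-0.15), and without both low-Xist libraries Col10a1 (0.012). Without a Phlpp1 term it was Phlpp1 (0.021). Fits without 1 library ranged from -0.034 to 0.010 for Akt1, -0.016 to 0.064 for Akt2, -0.021 to 0.076 for Runx2, -0.26 to 0.049 for Col10a1 and -0.19 to 0.029 for Phex. List counts without doubted libraries were added after seeing the data. Depth limits genes of few CPM.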
